A study of Mus musculus with 16 samples.

Results

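Mouse chromosome 11 carries odorant receptor genes numbered Olfr1371 to Olfr1396, Olfr311 to Olfr331 and Olfr376 to Olfr412, 3 ranges called clusters here. The 63 genes of these numbers measured on the arrays are described. They were taken by symbol, with 1 probe set a gene, from 1091 odorant receptor genes and 19505 genes in all. The clusters hold 21, 18 and 24 of the 63. In the first, 42 measured genes of other kinds lie between members, against 3 and 2 in the others, so it is no compact run of receptors. RefSeq (assembly GRCm38.p6) lists 64 such symbols and places all 63 on chromosome 11. The study sorted dissociated olfactory mucosa of S100a5-tauGFP mice into GFP+ and GFP- cells, and RNA of each fraction was put on Clariom S expression arrays. The groups were GFP+ and GFP- cells after octanol, an alcohol used as the odor, and GFP+ and GFP- cells after vehicle (filtered air), with 4 arrays each and 3 mice pooled per array. All 24 mice carried the reporter, were of both sexes, were 7 to 12 weeks of age and spent 40 h alone in clean-air chambers at 3.1 L/min. From 26 h on, the octanol or vehicle pulse came for 10 s every 20 min.

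An odorant receptor is a G protein-coupled receptor on the cilia of olfactory sensory neurons, and a mature neuron expresses a single receptor gene, from 1 of its alleles. Receptor genes lie in clusters of tandem duplicates, and neighbouring copies are often close relatives. Each gene of a cluster is chosen by its own set of neurons. S100a5, the gene behind the reporter, encodes a calcium-binding protein whose level in these neurons follows their activity, so GFP reports recent or sustained activity. A receptor's signal in a sorted fraction therefore depends on how many of its neurons were sorted there and on the receptor RNA in each. In these bulk samples a change in the number of neurons and a change in RNA per neuron cannot be told apart. The 61 members with a MOR family number among their synonyms are class II receptors, the larger class of land vertebrates.

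Members of these clusters can be alike in sequence and differ in their distribution between the fractions. First coding bases were compared only for the 38 members whose annotated start in RefSeq is the ATG. Among these, the closest pair called in opposite directions is Olfr312 and Olfr311. The first 50 coding bases of both are shown from RefSeq (GRCm38.p6), with the 1 differing base in capitals. Olfr312 lies at chr11:58831156-58831205, plus strand, and Olfr311 at chr11:58841116-58841165, plus strand.
Olfr312: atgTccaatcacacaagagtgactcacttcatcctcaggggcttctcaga
Olfr311: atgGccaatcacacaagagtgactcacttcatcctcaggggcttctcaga
The opposite case is a group called in the same direction or not called, in the cluster that holds Olfr1382, Olfr1381 and Olfr1380. Capitals mark where each differs from Olfr1381 in the first 50 coding bases, at chr11:49535187-49535236, plus strand, chr11:49551749-49551798, plus strand and chr11:49563923-49563972, plus strand.
Olfr1382: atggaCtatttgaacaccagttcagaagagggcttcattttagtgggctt
Olfr1381: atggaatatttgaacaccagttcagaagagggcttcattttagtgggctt
Olfr1380: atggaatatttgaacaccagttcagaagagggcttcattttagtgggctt
The third set belongs to the MOR135 family, which holds 10 of the 17 receptors lower in GFP+ cells after both exposures. Capitals mark where a gene differs from Olfr393, at chr11:73848074-73848123, minus strand, and the others lie at chr11:73786940-73786989, plus strand (Olfr390), chr11:73454161-73454210, minus strand (Olfr380), chr11:73486773-73486822, minus strand (Olfr381), chr11:73517148-73517197, minus strand (Olfr382) and chr11:73589687-73589736, minus strand (Olfr385).
Olfr393: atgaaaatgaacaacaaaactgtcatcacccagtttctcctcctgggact
Olfr390: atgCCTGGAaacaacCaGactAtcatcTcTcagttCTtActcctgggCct
Olfr380: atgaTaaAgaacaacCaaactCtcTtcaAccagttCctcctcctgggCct
Olfr381: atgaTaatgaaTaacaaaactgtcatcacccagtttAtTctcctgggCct
Olfr382: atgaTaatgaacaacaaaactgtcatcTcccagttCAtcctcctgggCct
Olfr385: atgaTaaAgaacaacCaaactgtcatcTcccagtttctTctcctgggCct
Olfr390 differs from Olfr393 at 15 of these bases, Olfr380 at 8, Olfr385 at 6, and Olfr381 and Olfr382 at 5 each. Olfr390 and Olfr393 were the receptors of the family with the largest differences, and Olfr382 and Olfr385 passed no test between the fractions. Last, Olfr323 (chr11:58625995-58626044, minus strand) and Olfr1377 (chr11:50984703-50984752, plus strand) were among the highest in GFP+ cells, and no close relative among the 63 is shown for them.
Olfr323: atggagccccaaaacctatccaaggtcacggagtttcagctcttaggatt
Olfr1377: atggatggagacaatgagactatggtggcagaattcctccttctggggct
Probe sequences were not used here, so the part of cross-hybridization between such relatives in any signal was not tested.

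The deposited log2 signals ranged from 2.22 to 18.70, with array medians of 7.42 to 7.70, and arrays of a group correlated at 0.990 to 0.994 over the tested genes. A background level of 6.32 log2 was set at the 95th percentile of 319 genes of vomeronasal receptors, which serve another sensory organ. S100a5 exceeded its GFP- level in GFP+ cells by 0.86 log2 after octanol (adjusted p = 4.61e-04, limma) and by 0.82 after vehicle (adjusted p = 6.38e-04). Omp, which marks mature olfactory neurons, averaged 18.22 log2 in octanol GFP+ against 18.10 in octanol GFP- cells, and 18.18 in vehicle GFP+ against 18.11 in vehicle GFP- cells. Cells other than neurons differed between the fractions: the log2 of the summed signal of 4 neutrophil markers (S100a8, S100a9, Ngp and Mmp8) was 10.81 to 13.74 in GFP+ and 18.38 to 19.08 in GFP- arrays after octanol, and 9.47 to 11.17 in GFP+ and 18.13 to 18.78 in GFP- arrays after vehicle. The summed signal of 6 markers of immature neurons was 16.19 to 16.39 in GFP+ and 16.52 to 16.96 in GFP- arrays after octanol, and 16.22 to 16.30 in GFP+ and 16.77 to 17.08 in GFP- arrays after vehicle. Taken gene by gene, 5 of these 6 markers were lower in GFP+ cells after each exposure, and 1 was not called, at 0.06 log2. The median difference of the 6 was -2.33 log2 after octanol and -2.74 after vehicle. The part of these cells in the differences of the receptors was not tested.

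Among the 63 receptors, 60 had a mean over 16 arrays above background, and 47 lay above it on every array. The other 3 were Olfr1390 (6.02 log2), Olfr401 (6.26) and Olfr395 (4.57), the last below background on all 16 arrays. Receptors above background on all 4 arrays numbered 51 (octanol) and 53 (vehicle) in GFP+ cells, and 56 (octanol) and 58 (vehicle) in GFP- cells. The median SD between arrays of a group for the members was 0.35 (octanol) and 0.43 (vehicle) log2 in GFP+ cells, and 0.32 (octanol) and 0.35 (vehicle) in GFP- cells.

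The 63 receptors were divided between the fractions, and the division was much alike after octanol and after vehicle. After octanol, 20 were higher and 17 lower in GFP+ than in GFP- cells, and after vehicle 19 were higher and 18 lower (adjusted p under 0.05, limma, Benjamini-Hochberg over 19505 genes). Over all genes tested, 16.7% were higher and 13.2% lower after octanol, and 14.7% were higher and 13.5% lower after vehicle. The members' shares were therefore 31.7% higher and 27.0% lower after octanol, and 30.2% higher and 28.6% lower after vehicle. The median GFP+ minus GFP- difference of the members was -0.01 log2 after octanol and -0.10 after vehicle, against 0.64 and 0.45 for the 1028 receptors outside the clusters and 0.14 and 0.13 for all genes. Outside the clusters, 494 receptors were higher and 219 lower after octanol, and 451 were higher and 236 lower after vehicle. With each array centred on its receptors, the split after octanol turned to 12 members higher and 29 lower, and after vehicle to 14 higher and 25 lower. Centred on the array median, 24 were higher and 17 lower after octanol, and 25 were higher and 17 lower after vehicle.

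Directions after octanol and after vehicle were mostly shared. Higher in GFP+ cells after both exposures were 19 receptors, lower after both 17, and called after neither 25, with differences of -0.69 to 1.16 log2, while 0 were called in opposite directions (0.0103% of all genes were). Olfr1387 was higher after octanol alone and Olfr1391 lower after vehicle alone, which is no test of a difference between the exposures. The call of Olfr1387 was lost without octanol replicate 1 or 3 (adjusted p = 0.0870 and 0.0534, limma) and with arrays centred on receptors (0.19 log2, adjusted p = 0.363). That of Olfr1391 was lost without the pool as a block (adjusted p = 0.164), with arrays centred on their median (-0.39 log2, adjusted p = 0.0882) and without vehicle replicate 1 or 3 (adjusted p = 0.101 and 0.0627). Over all genes, 9.10% were higher and 11.8% lower after both exposures. Across the 63 genes the differences after octanol and after vehicle, which come from different mice, correlated at r = 0.993 (Spearman 0.982). The points are genes of the same arrays, and the receptors outside the clusters gave r = 0.984. All 4 pools gave a difference of 1 sign for 44 members after octanol and for 40 after vehicle, and so did 47.3% and 47.7% of all genes.

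**Figure D1:**
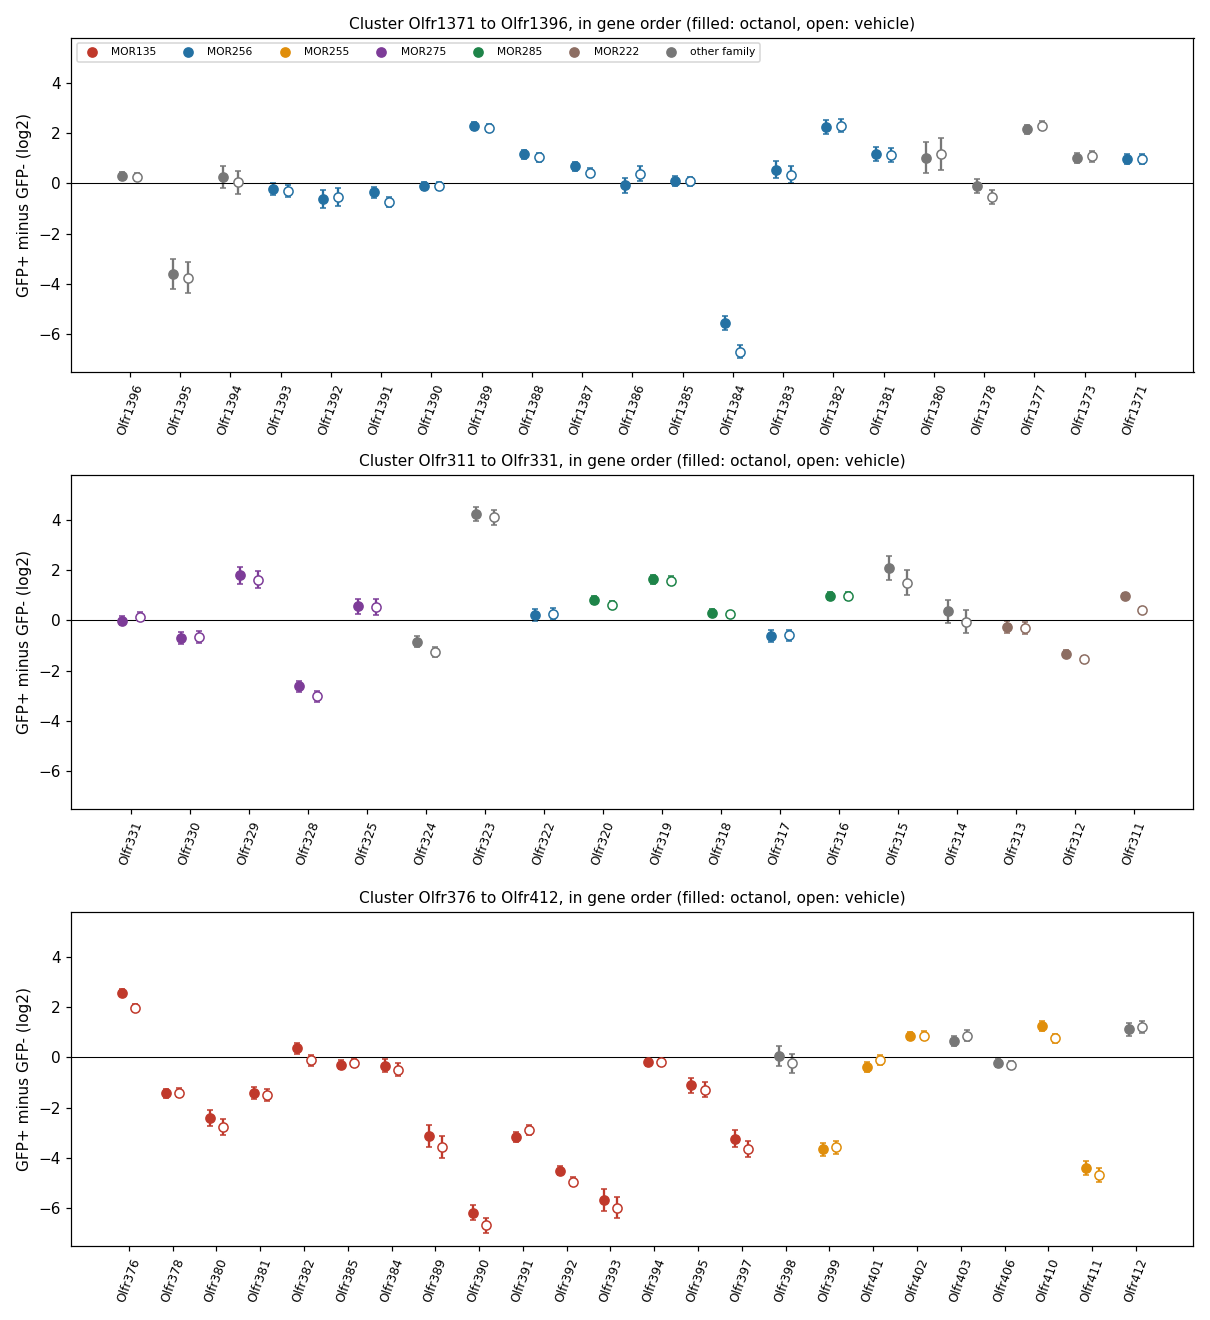
GFP+ minus GFP- difference (log2, vertical axis) of each receptor in its gene order along the 3 clusters, with bars for the SE of the fit. Filled points are octanol and open points vehicle, and colours mark MOR families. The red MOR135 genes lie mostly below 0, from Olfr378 to Olfr397, while single genes such as Olfr1384, Olfr1395, Olfr328 and Olfr411 drop to between -2.63 and -6.69 beside neighbours near or above 0.

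In the cluster Olfr376 to Olfr412, 5 of 24 members were higher and 12 lower in the GFP+ fraction after each exposure, with medians of -0.75 log2 after octanol and -0.89 after vehicle. In the cluster Olfr1371 to Olfr1396, 8 of 21 were higher and 2 lower after octanol, and 7 were higher and 3 lower after vehicle, with medians of 0.28 and 0.35. That order depended on the scaling, since centring arrays on receptors gave 4 higher and 6 lower, median -0.22, after octanol, and 7 higher and 4 lower, median 0.05, after vehicle. Single pools moved these medians too, to 0.74 after octanol without octanol replicate 2, and after vehicle to 0.18, 0.63 and 0.23 without vehicle replicate 1, 2 and 3. In the cluster Olfr311 to Olfr331, 7 of 18 were higher and 3 lower after each exposure (medians 0.34 and 0.24), which became 6 higher and 6 lower (median -0.16) after octanol and 4 higher and 5 lower (median -0.06) after vehicle under the same centring. After vehicle the cluster had 4 higher without vehicle replicate 3 or 4, and 9 higher with a median of 0.48 without vehicle replicate 2, and after octanol 5 lower without vehicle replicate 2. For the cluster Olfr376 to Olfr412 the medians ranged from -1.24 to -0.47 over the scalings, below 0 in each.

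The low members of that cluster were mostly of the MOR135 family, a set of closely related receptors that occupies the stretch from Olfr376 to Olfr397 and is known here by family number alone. Of its 15 measured genes 1 was higher and 10 were lower in the GFP+ fraction after each exposure, with medians of -1.43 log2 after octanol and -1.49 after vehicle. Over the other scalings it had 1 or 2 genes higher and 10 to 13 lower. Olfr395 is among the 10 and lay below background throughout, so no fold is given for it. Its calls were lost without octanol replicate 2 or 3 (adjusted p = 0.0585 and 0.0740, limma) and without vehicle replicate 3 (adjusted p = 0.0533).

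Olfr390 had the largest difference of the family. Its signal was 6.25, 6.92, 8.62 and 8.27 log2 in octanol GFP+ cells, against 13.37, 13.35, 14.11 and 13.96 in octanol GFP- cells. After vehicle, GFP+ cells gave 6.66, 6.57, 6.80 and 8.13, against 13.54, 13.82, 13.78 and 13.77 in vehicle GFP- cells. The fractions did not come near each other in either exposure, and the GFP+ values ran from 6.25, just under background, to 8.62. The difference was -6.18 log2 after octanol (SE 0.30, adjusted p = 3.44e-07, limma), at least 71.8-fold lower with values under background raised to it, and -6.69 after vehicle (SE 0.30, adjusted p = 2.03e-07), 103-fold lower.

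Olfr393, further along the cluster, had 7.17, 8.03, 8.68 and 9.12 log2 in octanol GFP+ cells, against 13.71, 13.85, 14.45 and 13.73 in octanol GFP- cells. After vehicle it had in GFP+ cells 9.18, 6.72, 7.77 and 9.08, against 14.07, 14.12, 14.39 and 14.12 in vehicle GFP- cells. GFP+ arrays were spread widely in both exposures while GFP- arrays were tight, and the fractions did not overlap. It was 51.4-fold lower after octanol and 63.4-fold lower after vehicle. Olfr392, next to it, had 8.88, 8.32, 9.12 and 8.63 in octanol GFP+ cells against 12.84, 12.73, 13.83 and 13.58 in octanol GFP- cells, and averaged 8.42 ± 0.49 in vehicle GFP+ against 13.36 ± 0.06 in vehicle GFP- cells (SD, n = 4). That is a difference of -4.51 log2 after octanol (SE 0.19, adjusted p = 1.84e-07, limma) and -4.95 after vehicle (SE 0.19, adjusted p = 1.07e-07).

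Olfr389 to Olfr393 formed an unbroken run of 5 genes, each lower in GFP+ cells after both exposures. Olfr389 was 8.72-fold lower after octanol and 11.9-fold lower after vehicle. Olfr391 averaged 5.38 ± 0.39 in octanol GFP+ and 8.55 ± 0.53 in octanol GFP- cells (SD, n = 4), with every GFP+ array below background, so it was at least 4.69-fold lower after octanol and at least 4.62-fold lower after vehicle. The run ended at Olfr394, whose signal was high and alike in the fractions, at 14.01 ± 0.14 log2 in octanol GFP+ and 14.21 ± 0.12 in octanol GFP- cells (SD, n = 4), a difference of -0.20 (adjusted p = 0.360, limma). Beyond it Olfr397 fell at least 6.78-fold after octanol and at least 10.4-fold after vehicle.

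At its other end the family was mixed. Olfr376 was its 1 member higher in GFP+ cells, with 8.41, 8.43, 7.39 and 8.03 log2 in octanol GFP+ cells, against 5.45, 5.94, 5.29 and 5.29, all below background, in octanol GFP- cells. In vehicle GFP+ cells it had 8.26, 8.51, 7.75 and 7.46, against 6.35, 6.50, 5.56 and 5.65 in vehicle GFP- cells. Every GFP+ array exceeded every GFP- array of the same exposure, and it was at least 3.36-fold higher after octanol and at least 3.09-fold higher after vehicle. Olfr378 was lower by 2.69-fold after octanol and 2.65-fold after vehicle, and Olfr380 by at least 5.26-fold and by 6.89-fold. Olfr381, with 0 of 4 octanol and 2 of 4 vehicle GFP+ arrays above background, was at least 1.89-fold lower after octanol and at least 2.70-fold lower after vehicle. Olfr382, Olfr385 and Olfr384 passed in neither exposure, at 0.37, -0.29 and -0.33 log2 after octanol and -0.11, -0.23 and -0.49 after vehicle.

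**Figure D2:**
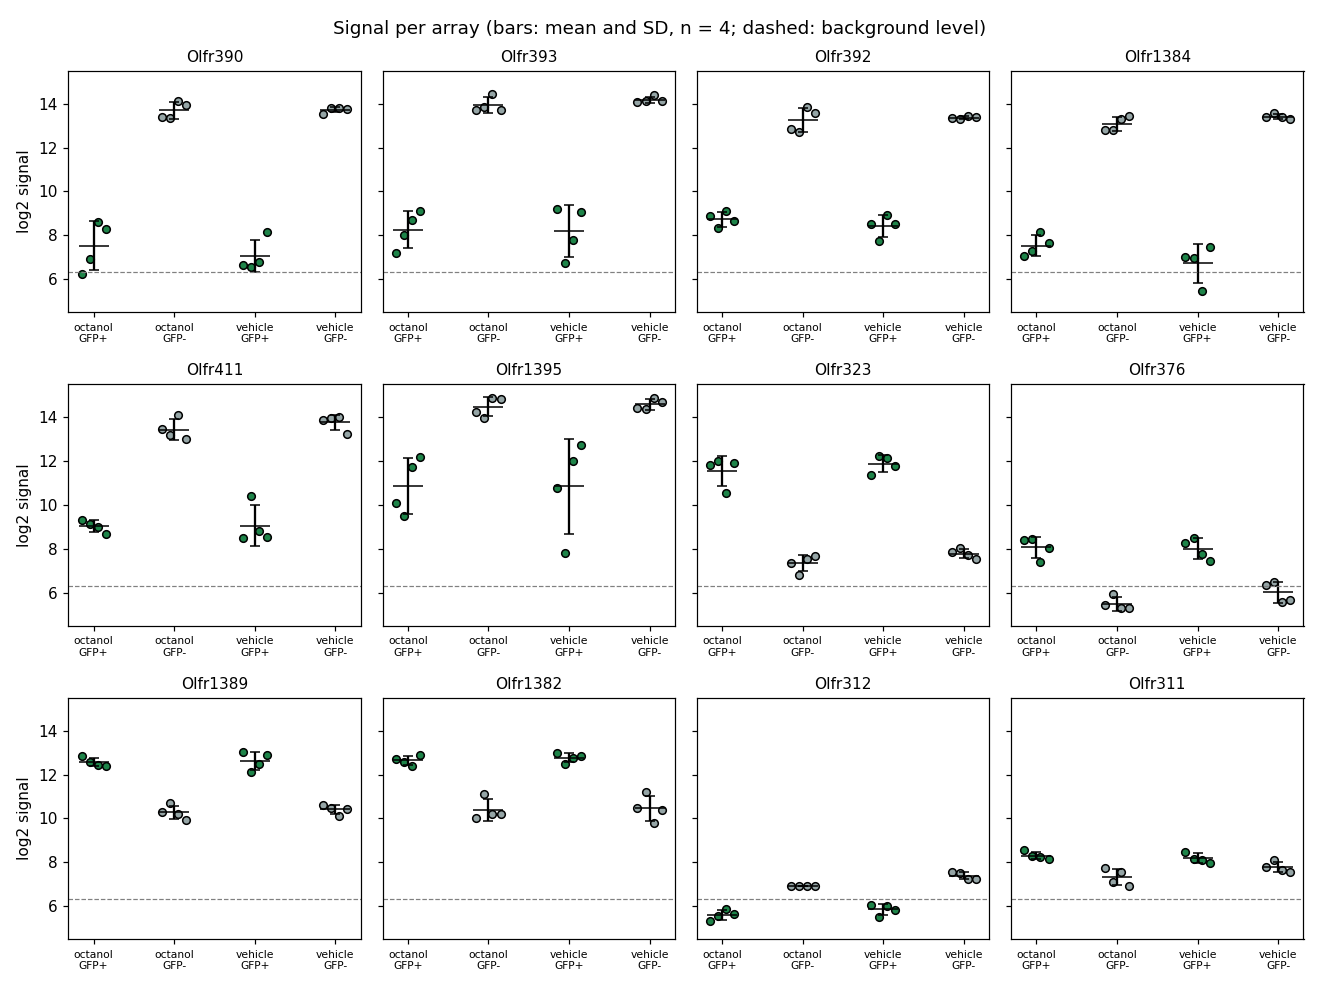
Log2 signal (vertical axis) of 12 receptors on each array of the 4 groups, with the mean and SD of 4 arrays and the background level of 6.32 as a dashed line. Olfr390 lies between 6.25 and 8.62 in GFP+ cells and between 13.35 and 14.11 in GFP- cells, and Olfr323 is reversed, at 10.54 to 12.25 in GFP+ and 6.82 to 8.04 in GFP- cells.

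The windows before the annotated starts were read for the members where the RefSeq promoter table holds them, 54 of 63. In 38 of these the annotated start is the ATG itself, so that the bases before it may not be a promoter. Among the other 16 are Olfr389 and Olfr392, both low in GFP+ cells, whose 250 bases before the start aligned with 183 identical of 212 columns (86.3%). This was the closest of the pairs aligned, which were those among Olfr330, Olfr378, Olfr389, Olfr391 and Olfr392. Other pairs of genes called lower gave 70.6% (Olfr378 and Olfr391), 67.7% (Olfr391 and Olfr392), 64.0% (Olfr389 and Olfr391), 63.7% (Olfr378 and Olfr392) and 62.8% (Olfr378 and Olfr389). These spanned 65 to 148 columns. Pairs with Olfr330, called after neither exposure, gave 62.9% to 76.5% over 17 to 35 columns. Compared base by base without gaps, Olfr1382 and Olfr1373, both higher in GFP+ cells, differ at 23 of their 250 bases before the ATG. Capitals mark the bases identical between Olfr389 and Olfr392, whose windows lie at chr11:73780590-73780839, minus strand, and chr11:73816878-73817127, minus strand.
Olfr389: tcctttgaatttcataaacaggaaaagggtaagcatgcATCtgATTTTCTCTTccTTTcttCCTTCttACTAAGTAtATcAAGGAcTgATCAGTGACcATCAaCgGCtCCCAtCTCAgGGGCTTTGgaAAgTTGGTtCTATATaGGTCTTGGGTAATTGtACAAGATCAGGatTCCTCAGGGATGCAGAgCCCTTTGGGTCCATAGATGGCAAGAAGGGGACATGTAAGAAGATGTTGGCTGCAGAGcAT
Olfr392: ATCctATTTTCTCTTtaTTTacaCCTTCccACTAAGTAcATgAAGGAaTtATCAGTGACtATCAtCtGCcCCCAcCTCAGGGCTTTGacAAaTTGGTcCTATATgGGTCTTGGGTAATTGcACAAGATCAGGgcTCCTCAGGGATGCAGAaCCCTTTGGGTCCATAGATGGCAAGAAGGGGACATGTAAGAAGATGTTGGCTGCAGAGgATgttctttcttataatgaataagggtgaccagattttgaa
Motifs were looked for on both strands of these 250 bases. TAATTA, the core bound by LIM homeodomain proteins such as Lhx2, stood in 11 of the 54 windows (20.4%), in 18.0% of 948 receptor windows and in 4.84% of all 32851. TATAAA stood in 15 of the 54 (27.8%), in 39.2% of receptor windows and in 12.4% of all, and the palindromic Olf/EBF motif, bound by Ebf proteins, in 0 of 54, 0.422% and 0.779%. Among the 16 windows whose annotated start is not the ATG, the Lhx2 core stood in 2 (12.5%), TATAAA also in 2 (12.5%), and the Olf/EBF motif in 0. Olfr1384, the lowest gene of another family, had none of the 3 in its window at chr11:49513368-49513617, plus strand.
Olfr1384: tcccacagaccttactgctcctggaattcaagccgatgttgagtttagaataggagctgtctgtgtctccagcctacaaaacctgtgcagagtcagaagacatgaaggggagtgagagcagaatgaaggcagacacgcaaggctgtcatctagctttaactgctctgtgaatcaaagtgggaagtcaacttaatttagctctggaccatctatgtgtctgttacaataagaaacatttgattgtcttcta

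In the cluster Olfr1371 to Olfr1396 most called members were higher in GFP+ cells, and Olfr1384 and Olfr1395 stood far below. The MOR256 family, which gives 16 of the 63 receptors in the clusters Olfr1371 to Olfr1396 and Olfr311 to Olfr331, had 6 higher and 1 lower after octanol and 5 higher and 2 lower after vehicle, with medians of 0.16 and 0.30 log2. Centred on receptors these became 3 higher and 6 lower, median -0.34, after octanol, and 5 higher and 3 lower, median -0.01, after vehicle. Leaving out 1 pool gave medians of 0.09 (octanol replicate 1) to 0.27 (octanol replicate 3 or 4) after octanol and of 0.15 (vehicle replicate 2) to 0.32 (vehicle replicate 4) after vehicle, with 0.19 without vehicle replicate 1. It had 1 lower after vehicle without vehicle replicate 1 or 3, and 2 lower after octanol without vehicle replicate 2. Its lower member after both exposures was Olfr1384, with 7.04, 7.30, 8.13 and 7.64 log2 in octanol GFP+ cells, against 12.79, 12.80, 13.29 and 13.42 in octanol GFP- cells. Vehicle GFP+ cells had 7.01, 6.98, 5.44 and 7.46, against 13.37, 13.59, 13.37 and 13.31 in vehicle GFP- cells. The fractions were widely separated in each exposure, and the vehicle GFP+ array at 5.44 was the only one below background. Olfr1384 was 46.8-fold lower after octanol (difference -5.55 log2, SE 0.27, adjusted p = 3.77e-07, limma) and at least 88.6-fold lower after vehicle (-6.69, SE 0.27, adjusted p = 1.31e-07). Its neighbours of the same family, Olfr1385 and Olfr1383, passed in neither exposure, at 0.09 and 0.55 log2 after octanol and 0.08 and 0.35 after vehicle.

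The other low gene, Olfr1395, was uneven between pools. It had 10.07, 9.50, 11.71 and 12.17 log2 in octanol GFP+ cells, against 14.23, 13.98, 14.86 and 14.83 in octanol GFP- cells. In vehicle GFP+ cells it had 10.77, 7.83, 12.02 and 12.75, against 14.43, 14.36, 14.88 and 14.68 in vehicle GFP- cells. GFP+ arrays of a group differed widely and still lay below every GFP- array. The difference was -3.61 log2 after octanol and -3.75 after vehicle (SE 0.61 each, adjusted p = 0.00148 and 0.00116, limma).

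Olfr1389, Olfr1382 and Olfr1377 had the 3 largest positive differences of this cluster after both exposures. Olfr1389 had 12.85, 12.56, 12.45 and 12.41 log2 in octanol GFP+ cells, against 10.29, 10.68, 10.19 and 9.93 in octanol GFP- cells. It averaged 12.61 ± 0.41 in vehicle GFP+ and 10.41 ± 0.20 in vehicle GFP- cells (SD, n = 4), and was 4.90-fold higher after octanol and 4.60-fold higher after vehicle. Olfr1382 was 4.77-fold higher after octanol and 4.93-fold higher after vehicle, with no overlap between the fractions. Olfr1381, which differs from it at 1 of the 50 coding bases shown, was 2.25-fold and 2.18-fold higher (adjusted p = 0.0143 and 0.0177, limma). Its call after octanol was lost without octanol replicate 1 or 4 (adjusted p = 0.0755 and 0.0673) and with arrays centred on receptors (0.0621), and its call after vehicle without vehicle replicate 1, 3 or 4 (adjusted p 0.0704 to 0.0785). Olfr1380, with the same 50 bases as Olfr1381, did not pass, at 1.03 log2 after octanol and 1.16 after vehicle (SE 0.63 each, adjusted p = 0.246 and 0.198). Olfr1377, of the MOR129 family, was at least 3.99-fold higher after octanol and at least 3.89-fold higher after vehicle, with GFP- means below background.

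The cluster Olfr311 to Olfr331 held the largest rise of the 63 receptors. Olfr323, of the MOR107 family, had 11.83, 11.98, 10.54 and 11.90 log2 in octanol GFP+ cells, against 7.34, 6.82, 7.54 and 7.65 in octanol GFP- cells. In vehicle GFP+ cells it had 11.37, 12.25, 12.12 and 11.76, against 7.84, 8.04, 7.71 and 7.53 in vehicle GFP- cells. The fractions were widely separated and all 16 values were above background. It was 18.7-fold higher after octanol (4.23 log2, SE 0.29, adjusted p = 2.73e-06, limma) and 17.1-fold higher after vehicle (4.10, SE 0.29, adjusted p = 3.39e-06).

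Olfr329, of the MOR275 family, was 3.47-fold higher after octanol and 3.07-fold higher after vehicle, while Olfr328, the next gene and of the same family, was 6.21-fold lower and 8.12-fold lower. Olfr329 had 14.77, 13.94, 14.30 and 13.93 log2 in octanol GFP+ cells against 12.46, 12.18, 12.58 and 12.54 in octanol GFP- cells, and Olfr328 had 9.89, 9.58, 9.54 and 9.72 in octanol GFP+ cells against 12.20, 11.49, 12.85 and 12.73 in octanol GFP- cells. After vehicle, the GFP+ array of Olfr329 at 12.08 lay within the GFP- range of 11.68 to 12.37, and its other GFP+ arrays lay at 13.69 to 14.69. The remaining genes higher after both exposures, Olfr1388, Olfr1373, Olfr1371, Olfr320, Olfr316, Olfr402 and Olfr403, differed by 0.60 to 1.17 log2. With arrays centred on receptors, Olfr1373, Olfr1371, Olfr402 and Olfr320 lost the octanol call, at 0.51, 0.47, 0.34 and 0.32 log2 (adjusted p = 0.0526, 0.102, 0.0872 and 0.0892, limma). Olfr320 lost its call after vehicle under that centring too (adjusted p = 0.167) and without vehicle replicate 3 or 4 (adjusted p = 0.0611 and 0.0840). Olfr403 lost its call after octanol in 8 of 16 alternatives (adjusted p 0.0510 to 0.571), among them the fits without octanol replicate 1, 3 or 4 and without vehicle replicate 1 or 4, and its call after vehicle without vehicle replicate 3 or 4 and with arrays centred on receptors (adjusted p 0.0507 to 0.0780). The 4 measured genes of the MOR285 family had 3 higher and 0 lower after each exposure, with medians of 0.89 log2 after octanol and 0.79 after vehicle, which were 0.40 and 0.49 when arrays were centred on receptors. Among them Olfr319 was 3.10-fold higher after octanol and 2.98-fold higher after vehicle. Olfr315 was 4.23-fold higher after octanol (adjusted p = 0.0104, limma). After vehicle it differed by 1.50 log2 (adjusted p = 0.0454), and by 2.27 without vehicle replicate 2. The call after vehicle was lost without vehicle replicate 1, 3 or 4 (adjusted p 0.116 to 0.181, limma) and without any 1 octanol replicate (0.0505 to 0.0614), with arrays centred on receptors (0.0915) and with a trended, robust variance model (0.0977).

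Genes next to each other could differ in direction. Of 60 neighbouring pairs of members, 6 were called in opposite directions after both exposures and 14 in the same direction after both. Neighbouring means next among the measured members, so other receptor genes can lie between. Among the 14 there were 5 between Olfr1377 and Olfr1373 and 3 between Olfr395 and Olfr397. Olfr378 and Olfr380, and Olfr1373 and Olfr1371, had 1 between them. The 6 opposite pairs were Olfr411 and Olfr412, Olfr410 and Olfr411, Olfr324 and Olfr323, Olfr329 and Olfr328, Olfr376 and Olfr378 (with 3 other receptor genes between them) and Olfr312 and Olfr311. Olfr411, of the MOR255 family, had 9.33, 9.11, 9.01 and 8.68 log2 in octanol GFP+ cells, against 13.44, 13.17, 14.10 and 13.01 in octanol GFP- cells. Its fractions were far apart and the gene was 21.0-fold lower after octanol and 26.1-fold lower after vehicle. On one side Olfr410, also MOR255, was 2.39-fold higher after octanol and 1.70-fold higher after vehicle, and on the other Olfr412, of the MOR127 family, was 2.16-fold and 2.34-fold higher. The call of Olfr410 after vehicle (adjusted p = 0.0138) was lost without vehicle replicate 2 (adjusted p = 0.0623) and with arrays centred on receptors (adjusted p = 0.0922), which also ended the octanol call of Olfr412 (0.61 log2, adjusted p = 0.0605). Olfr324 differed by -0.84 log2 after octanol and -1.27 after vehicle, beside Olfr323. The octanol call of Olfr324 (adjusted p = 0.0114) was lost without octanol replicate 2 (adjusted p = 0.0527) and without the pool as a block (adjusted p = 0.0625).

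Olfr312 and Olfr311, with 1 differing base in the 50 shown above, were the closest pair called in opposite directions among the members compared. Olfr312 had 5.33, 5.55, 5.87 and 5.66 log2 in octanol GFP+ cells, all below background, against 6.92, 6.94, 6.93 and 6.91 in octanol GFP- cells. In vehicle GFP+ cells it had 6.04, 5.52, 6.02 and 5.84, against 7.57, 7.51, 7.23 and 7.26 in vehicle GFP- cells. It was at least 1.52-fold lower after octanol and at least 2.10-fold lower after vehicle. Olfr311 had 8.55, 8.28, 8.26 and 8.13 in octanol GFP+ cells, against 7.76, 7.09, 7.54 and 6.93 in octanol GFP- cells, a difference of 0.98 log2 (SE 0.13, adjusted p = 4.09e-04, limma). After vehicle its GFP+ values of 8.49, 8.15, 8.12 and 7.98 overlapped the GFP- values of 7.77, 8.11, 7.66 and 7.56, and the difference was 0.41 (adjusted p = 0.0468). That call was lost in 9 of 16 alternatives, among them the fits without vehicle replicate 1, 3 or 4 (adjusted p 0.120 to 0.182) and without octanol replicate 1, 2 or 4 (0.0540 to 0.0554). Olfr399, also of the MOR255 family, was at least 12.1-fold lower after octanol and 11.9-fold lower after vehicle. In that family Olfr401 and Olfr410 differ at 3 of the 50 bases, and Olfr401, near background, passed in neither exposure (-0.39 and -0.11 log2).

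Other receptor genes and genes of other kinds lie among the members. Of 11 other receptor genes within the clusters, 5 were higher and 4 lower after octanol, and 4 were higher and 4 lower after vehicle. Olfr139, in the stretch of the cluster Olfr376 to Olfr412, differed by -2.93 log2 after octanol, and Olfr1 by -2.27 after octanol and -2.63 after vehicle. Olfr54 and Olfr51, in the cluster Olfr1371 to Olfr1396, differed by 1.49 and 1.38 after octanol and 1.34 and 1.25 after vehicle. Of 47 genes of other kinds between the members, 3 were higher and 3 lower after octanol, and 6 were higher and 3 lower after vehicle. The largest differences among those called after both exposures were those of Ltc4s, the synthase of the lipid mediator leukotriene C4, at -1.26 after octanol and -1.81 after vehicle, of Rnf130 at -0.82 and -0.69, and of Fam183b at 0.48 and 0.58. Ltc4s was above background on 3 of 4 octanol and 1 of 4 vehicle GFP+ arrays. After octanol alone 9230009I02Rik differed by 0.65, with every array below background.

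Other genes of the receptor system gave small differences apart from Lbr. Of 15 genes of receptor choice and transport, 6 were higher and 1 lower after octanol, and 3 were higher and 1 lower after vehicle. Those higher after both were Adcy3, the adenylyl cyclase of the cilia (0.32 log2 after octanol and 0.30 after vehicle), Rtp2, a receptor transport protein (0.39 and 0.40), and Reep1 (0.38 and 0.54). Lbr, a nuclear envelope protein of which neurons have little, differed by -1.89 and -1.83. Lhx2, which binds receptor enhancers, differed by 0.05 (adjusted p = 0.697, limma) and -0.01 (adjusted p = 0.932). Of 9 signalling genes 2 were higher after octanol and 1 after vehicle, with 0 lower in each; Ano2, a chloride channel of the cilia, was higher by 0.52 and 0.50.

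Octanol against vehicle gave no call among the 63 receptors within either fraction or for the GFP+ to GFP- ratio. Called were 0 of 63 in each of these 3 comparisons, and 0.0% of all 19505 genes (adjusted p under 0.05, limma). At an unadjusted p under 0.05, the ratio gave 3 members, against 4.54% of all genes, GFP+ cells 1 member, against 3.73%, and GFP- cells 5 members, against 4.58%. These counts moved when a pool or a single array was left out. For the ratio, where both arrays of a pool were left out, they ran from 3 to 8 members, the 8 without vehicle replicate 2. In GFP+ cells they ran from 0 without octanol replicate 2 or 3 to 6 without octanol replicate 4, and in GFP- cells from 2 without vehicle replicate 2 to 9 without vehicle replicate 4. The octanol minus vehicle difference of the members ran from -0.56 to 0.81 log2 in GFP+ cells (median -0.03) and from -0.71 to 0.48 in GFP- cells (median -0.17). Both ends in GFP+ cells, Olfr381 at -0.56 and Olfr1384 at 0.81, include arrays below background.

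For the ratio, the 3 members were Olfr376, Olfr311 (0.57 log2 more after octanol, SE 0.19) and Olfr1384 (1.14, SE 0.39), each at an adjusted p of 0.998 (limma). Olfr376 is given no size, since 0 of 4 octanol and 2 of 4 vehicle GFP- arrays were above background and its folds are the bounds given above. In Olfr1384 the vehicle GFP+ arrays include the value of 5.44 below background given above. Olfr410 (0.49, SE 0.27) and Olfr392 (0.44, SE 0.27) had the next lowest p. Olfr311 differed between the exposures by 0.12 log2 in GFP+ and by -0.44 in GFP- cells, and neither passed after adjustment.

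Within GFP+ cells 0 of 63 members had octanol values that did not overlap the vehicle values, against 2.21% of all genes. Within GFP- cells the values of 1 member, Olfr312, did not overlap, against 2.57%: its octanol GFP- values of 6.91 to 6.94 lay below its vehicle GFP- values of 7.23 to 7.57. The difference was -0.46 log2 (SE 0.12, unadjusted p = 0.00292, adjusted p = 0.982, limma). In GFP- cells the octanol minus vehicle difference was above 0 for 13 of 63 members, with a median of -0.17, for 243 of 1028 receptors outside the clusters, with a median of -0.16, and for 9002 of all 19505 genes. The median of the members became -0.02 with each array centred on its receptors.

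**Figure D3:**
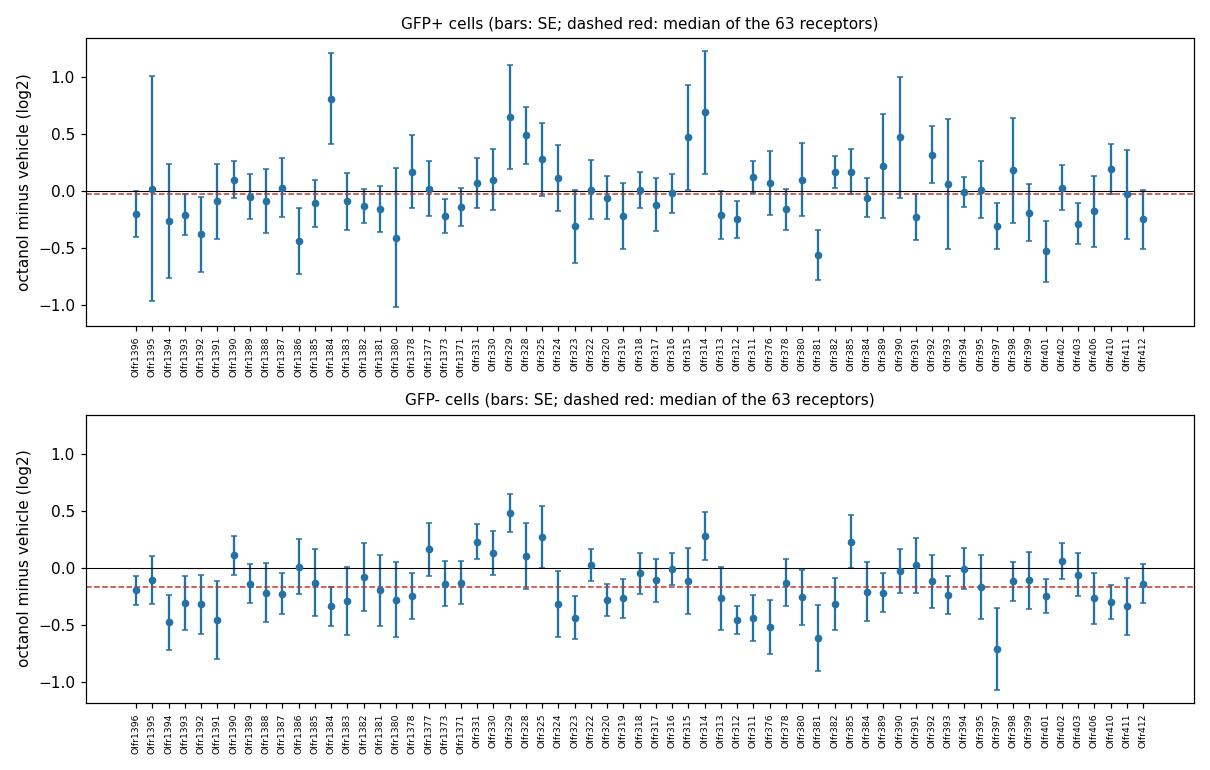
Octanol minus vehicle difference (log2, vertical axis) of the 63 receptors in gene order, in GFP+ cells (top) and GFP- cells (bottom), with SE bars and the median of the 63 as a dashed line. The medians lie at -0.03 in GFP+ and -0.17 in GFP- cells, and 0 of 63 differences in either fraction passed the adjusted threshold.

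Arrays of a group differed from each other in a way that recurred across the exposures. The GFP+ array of pool number 2 was the lowest of its group for 24 members after octanol and for 30 after vehicle, and for 21 of these members in both. The same array was the highest for 13 members after octanol, for 20 after vehicle and for 11 in both, so it lay apart in both directions. Over the 63 genes, its deviations from the group mean correlated at r = 0.71 between octanol and vehicle, while deviations of number 2 against other numbers correlated at -0.52 to -0.39. Deviations in a group cancel out for each gene, so a positive value for the same number forces negative ones among the others. The negative values are therefore no independent contrast. Numbers 4, 3 and 1 gave r = 0.50, 0.29 and 0.05. The points are genes of the same arrays, and the pools of a number hold different mice. Low in number 2 were Olfr1395, by -1.36 log2 from the octanol group mean and -3.01 from the vehicle group mean, Olfr1380 (-1.77 and -1.10), Olfr1394 (-1.42 and -1.08), Olfr314 (-0.56 and -1.92) and Olfr398 (-0.26 and -1.66). In GFP- cells the number 2 arrays of these 5 genes had no common sign, at -0.49 and -0.23 log2 from the octanol and vehicle group means for Olfr1395, 0.72 and 0.86 for Olfr1380, 0.11 and 0.72 for Olfr1394, -0.44 and 0.44 for Olfr314, and 0.14 and 0.25 for Olfr398. Over all 63 members the number 2 arrays of GFP- cells correlated at r = 0.58 between exposures. Values with other numbers ran from -0.44 to 0.12, under the same constraint. The GFP- array of number 2 was the highest for 21 members after octanol, 41 after vehicle and 17 in both. It was the lowest for 20, 7 and 6. In GFP+ cells the receptors outside the clusters had r = 0.70 for number 2, with 178 of 1028 lowest and 184 highest there in both exposures, and number 3 was lowest in both for 176. Per the design text the exposures were run simultaneously, which is why the number served as a block in an alternative fit. What else pools of a number share is not stated in the labels, and the part of the number in the spread of the members was not tested.

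**Figure D4:**
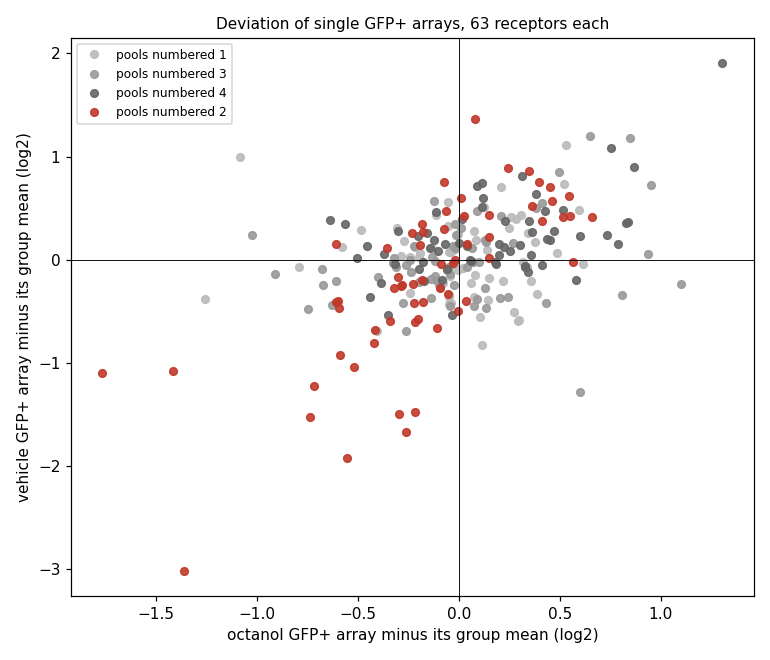
Deviation of single GFP+ arrays from their group mean (log2) for the 63 receptors, the octanol array on the horizontal and the vehicle array of the same pool number on the vertical axis. Number 2 is red and correlates at r = 0.71, with Olfr1395 lowest at -1.36 and -3.01.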

How the data were processed

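Log2 expression signals from 16 Clariom S arrays were deposited by the authors, who computed them with Affymetrix Expression Console, per the submitters' processing notes; version and settings not given in the sources used here. Values were used as deposited. Per the labels' protocols, biotinylated cRNA was made from 50 to 100 ng of total RNA. Of 28846 probe sets, 19572 carried exactly 1 gene symbol; per gene the one of highest mean over the 16 was kept, leaving 19505 genes. The number of arrays limits the precision.

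The fractions were compared with limma 3.58.1 (R 4.3.3; lmFit, eBayes, 2-sided) on 16 arrays, the pool being a fixed block with 6 residual degrees of freedom. How octanol changed the GFP+ to GFP- ratio came from the same fit, and octanol against vehicle within a fraction from 8 arrays without a block. P-values were adjusted by Benjamini-Hochberg over all genes (threshold 0.05). That the fractions of 1 exposure and number are the same 3 mice is inferred from 24 mice. Their residuals correlated at 0.0779 to 0.2224 in 8 pools, 6 of them above 0.1, against a mean of 0.1286 for other mice of the same number. An "at least" fold raises values under 6.32 log2 to that level.

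Members named are the 8 largest rises and falls in each fraction comparison with the same sign in all 4 pools, members that do not overlap between exposures, the 5 lowest p for the ratio and opposite neighbours. For other genes between them, the 3 largest differences among those called after both exposures are named. Other members were named after their values were seen. Members and lists were chosen with earlier results of these data known. Protein identity was replaced by identity over 50 coding bases, chosen after seeing the data, and sequences are from RefSeq (GRCm38.p6). Fits were also run on simulated data with independent arrays and planted changes larger than any octanol difference of the members. That run held no shared effect of pool or number, so it does not cover such effects or smaller changes. Alternatives changed the block, the scaling, the filter on low signals, the variance model, the probe set or left out pools.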

Additional observations from a re-analysis of the deposited data

Results flagged for a closer look

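Within the 100 groups of 4 arrays examined for 25 named receptors, 6 had 1 array far from the other 3, where chance sets apart about 1 in 20. Olfr323 read 10.54 log2 on octanol GFP+ replicate 3, with the others at 11.83 to 11.98. Olfr1382 read 11.13 on octanol GFP- replicate 2, with the others at 10.02 to 10.20. Olfr315 read 8.17 on vehicle GFP+ replicate 2, with the others at 10.03 to 10.34, and Olfr390 read 8.13 on vehicle GFP+ replicate 4, with the others at 6.57 to 6.80. Olfr412 had 1 such array in each of 2 groups, 8.55 on octanol GFP- replicate 4 (others 8.14 to 8.19) and 10.38 on vehicle GFP+ replicate 2 (others 9.26 to 9.45).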

How the results depend on the processing

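Of 37 calls after octanol, 27 (12 higher, 15 lower) held in all 16 alternatives, and of 37 after vehicle 29 (13 higher, 16 lower). No called difference changed sign, and 24 receptors held in both. In several alternatives the sign could not change, since they leave a member's difference as it was. These were the fits without the block, with low signals filtered, with the other variance model or without pools of the other exposure. The lowest-mean probe set could change little, since 19572 probe sets covered 19505 genes. It gave 20 higher and 17 lower after octanol, as in the main fit, and left the median of each of the 3 clusters unchanged. It was therefore hardly a test for these members. With arrays centred on receptors, 12 members were higher and 29 lower after octanol; that scaling moved the median difference of all genes to -0.36 after octanol and -0.17 after vehicle, and centring on the array median moved it to 0.41 and 0.46. Leaving out 1 pool gave 17 to 21 higher and 15 to 19 lower after octanol, and 14 to 21 higher and 16 to 19 lower after vehicle. Without octanol replicate 3 the octanol difference of Olfr395, which lay below background throughout, was -0.73 (adjusted p = 0.0740, limma). Without the replicate block, which ties the fractions of a pool, 20 were higher and 17 lower after octanol, and 18 higher and 17 lower after vehicle. With the replicate number as a replicate block between exposures, 0 members were called in either fraction, and 3 in GFP+ and 7 in GFP- cells had an unadjusted p under 0.05. Over all genes, same-numbered arrays of the exposures correlated at 0.058 to 0.230 in GFP+ and 0.072 to 0.332 in GFP- cells. GFP+ arrays of numbers 1 and 3 correlated better with another number. Not every such pair passed 0.1, and neither did every pool, with 6 of 8 above it. The mean was 0.1597 for the pools and 0.1286 for other mice of the same number, so these correlations do not separate the 2 pairings. The main octanol fits left out the number because the exposures hold different mice, and do not account for what same-numbered pools share. Without number 2 of both exposures, chosen after seeing the data, 22 were higher and 16 lower after octanol, and 25 higher and 18 lower after vehicle. Signals under background limit to bounds both folds of Olfr312, Olfr376, Olfr381, Olfr391, Olfr397 and Olfr1377, the octanol folds of Olfr380, Olfr390 and Olfr399 and the vehicle fold of Olfr1384, and 4 pools a group limit what octanol comparisons can show.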
